A study of Mus musculus with 74 samples.

Results

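The genes of transcription factors that pattern the vertebrate embryo were searched for binding sites of KRAB-ZFPs, repressors that couple an array of DNA-binding zinc fingers to a KRAB domain. The genes were 39 listed members of the Pax, Lhx, Gata, Tbx, Nkx and Fox families together with every gene whose symbol begins with Hox in the gencode vM1 annotation of mouse build mm9, which gave 80 genes, 78 of them protein-coding, of 22270 protein-coding genes and 37092 annotated genes. A peak was assigned to a gene when the midpoint of its 200 bp window lay in the gene body or within 50 kb of it. The choice of genes used no binding value, although earlier results of these data were known when it was made. Foxf1 carries the older name Foxf1a in that annotation and was matched through a synonym, and 2 Hox members are noncoding transcripts, Hoxa11as and Hoxb3os.

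Each of 67 KRAB-ZFPs was overexpressed with an epitope tag from a stably integrated vector and immunoprecipitated once, so no value has a replicate error. In F9 EC cells, a mouse embryonal carcinoma line, 18 KRAB-ZFPs carried an N-terminal 3XFLAG tag and were called against F9 input and a FLAG control ChIP, and 30 carried a 3XHA tag, on the N or the C terminus, and were called against F9 input and an HA control ChIP. Another 10 with a C-terminal 3XHA tag in F9 cells were aligned with Bowtie2 and called against a control ChIP named for Gm14296, and 9 with a C-terminal 3XHA tag were assayed in B6 ES cells against an input alone. Tagged protein above its natural level can occupy sites that the endogenous protein does not, and peaks carry no expression level, so the labelled cell types could not be checked against marker genes. Summed over its peaks, a KRAB-ZFP had from 1681 to 540220 sequenced tags (median 11203). Library depth is unknown, so a gene without a peak is a gene without a call at these settings. The HA-tagged proteins in ES cells were called at p under 1e-05 with no enrichment threshold named in the labels, most others at p under 1e-10. Distances to a gene are from its nearest annotated transcript start.

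Homeodomain, paired, T-box, GATA and forkhead proteins bind regulatory DNA and set cell identity along the body axes and in the organs. Hox genes lie in 4 clusters in which gene order follows the order of expression along the head to tail axis. In embryonic stem and carcinoma cells most of these genes are silent and carry the repressive mark of Polycomb complexes over CpG-rich starts, while KRAB-ZFPs are best known for recruiting KAP1 to retrotransposons. The clusters are also known to hold few transposable elements. In these windows 5.04% of positions sampled every 1 kb around the Hox genes had a single 24-mer with at least 10 genomic copies. The share was 7.02% around the other members and 12.6% around other protein-coding genes. For a peak, copy number is instead the median over the 24-mers of its 200 bp window.

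Near the members there were 163 peaks of 40 KRAB-ZFPs, and 27 KRAB-ZFPs had none. Peaks were not filtered on the caller's false discovery rate, which was under 5% for 138 of the 163. It was 100% for 3 peaks, of Gm14391, Gm14326 and Gm14418, each the only peak of its KRAB-ZFP near members. Among peaks named below it was 12.79% for Gm14401 near Hoxc12, 14.59% for Zfp933 near Pax3 and 31.96% for Gm14443 near Pax9. It was also 11.49% for Zfp273 near Tbx20, and 10.09%, 9.77% and 9.77% for Gm14401 near Pax9, Tbx5 and Gata2. The 46.3-fold peak of Zfp874a near Hoxb13 had 8.33%, and Gm8898 near Tbx5 had 5.04%. The lowest peaks in the fold ranges given below for Pax3 and Tbx4 had 37.93% and 9.66%. Of the 78 protein-coding members, 75 had at least 1 peak within 50 kb, or 96.2%, against 90.9% of all protein-coding genes and 90.3% when these were weighted to the lengths of the members. Peaks of at least 3 KRAB-ZFPs lay near 43 members, or 55.1%, against 57.2% of all protein-coding genes, and the median of 3 peaks per gene was the same in both. The share of genes with a peak nearby thus lay close to the background. It differed more within genes, where 35 members, or 44.9%, had a peak in the gene body against 38.6% of all protein-coding genes and 29.5% at the same lengths. A peak within 1 kb of an annotated transcript start was found at 20 members, or 25.6%, against 20.4% and 18.4%. Neighbouring members share peaks, so these genes are not independent observations and the shares are given without a test.

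**Figure D1:**
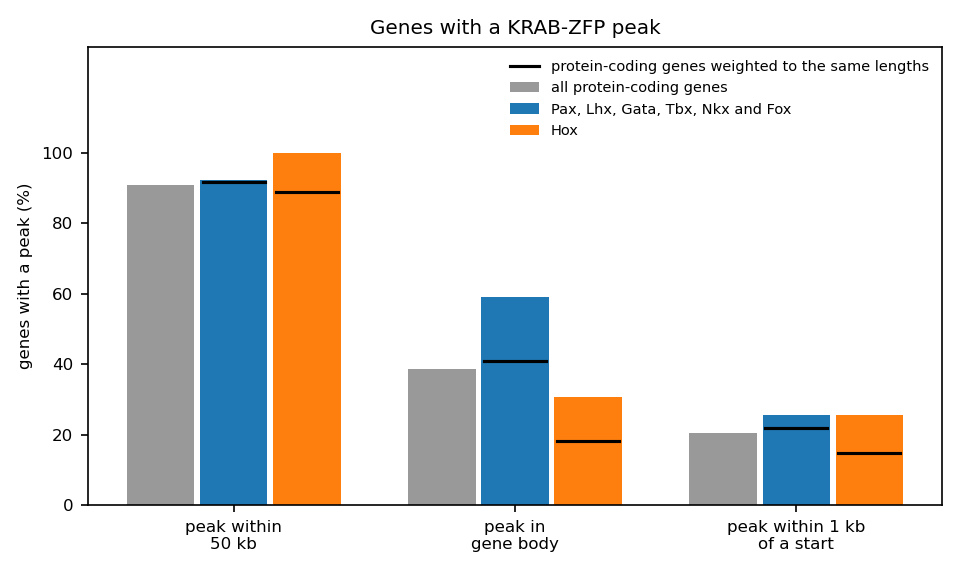
Percent of genes (vertical axis) with a KRAB-ZFP peak within 50 kb, in the gene body or within 1 kb of a transcript start, for all 22270 protein-coding genes (grey), the 39 Pax, Lhx, Gata, Tbx, Nkx and Fox genes (blue) and the 39 protein-coding Hox genes (orange); black lines mark protein-coding genes weighted to the same lengths. The bars are close to the lines for peaks within 50 kb of the blue genes and lie further above them for gene bodies, with 59.0% against 40.8% for the blue and 30.8% against 18.2% for the orange genes.

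Counted over merged windows, in which each base and each peak counts once, the members covered 5.95 Mb with 27.4 peaks per Mb, and other protein-coding genes 1640 Mb with 22.9 peaks per Mb. The ratio of the 2 densities was 1.20, with an exact 95% interval of 1.02 to 1.4 that covers counting error only and treats peaks as independent, and it was 1.12 without Gm13152, a value inside that interval. Single-copy peaks alone had a density of 22.7 per Mb against 15.2, a ratio of 1.49. These densities are per Mb of all sequence, while 90.4% of sampled positions near members and 81.0% near other protein-coding genes were single-copy. Of the 163 peaks 25, or 15.3% with an exact 95% interval of 10.2 to 21.8, lay in sequence of at least 10 copies, against 26.3% of peaks near other protein-coding genes. The Hox windows held 33.6 peaks per Mb and those of the other members 26.3. Members' windows were also richer in CpG. A GC content of at least 50% with an observed to expected CpG ratio of at least 0.6 was found at 4.14% of sampled positions near members and 1.28% near other genes, and at 23.9% and 15.9% of the peaks. The part of base composition and copy number in the densities was not tested.

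The 4 Hox clusters together held 30 peaks of 13 KRAB-ZFPs, of which 27 were in single-copy sequence, and all 39 protein-coding Hox genes had a peak within 50 kb. Because the genes are packed closely, 1 peak was counted for up to 10 genes, and the clusters rather than the genes are the units to compare. The densities including flanks were 29.2 peaks per Mb for Hoxa, 29.2 for Hoxb, 37.1 for Hoxc and 40.6 for Hoxd, resting on 6, 8, 8 and 8 peaks. Between the first and the last gene, Hoxa had 3 peaks, Hoxb 4, Hoxc 6 and Hoxd 6. These counts are small and no test between clusters was made. Only Gm14412 had peaks at all 4 clusters among the 13 KRAB-ZFPs, with 6 peaks, and Gm13152 and Gm13251 had peaks at 3.

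**Figure D2:**
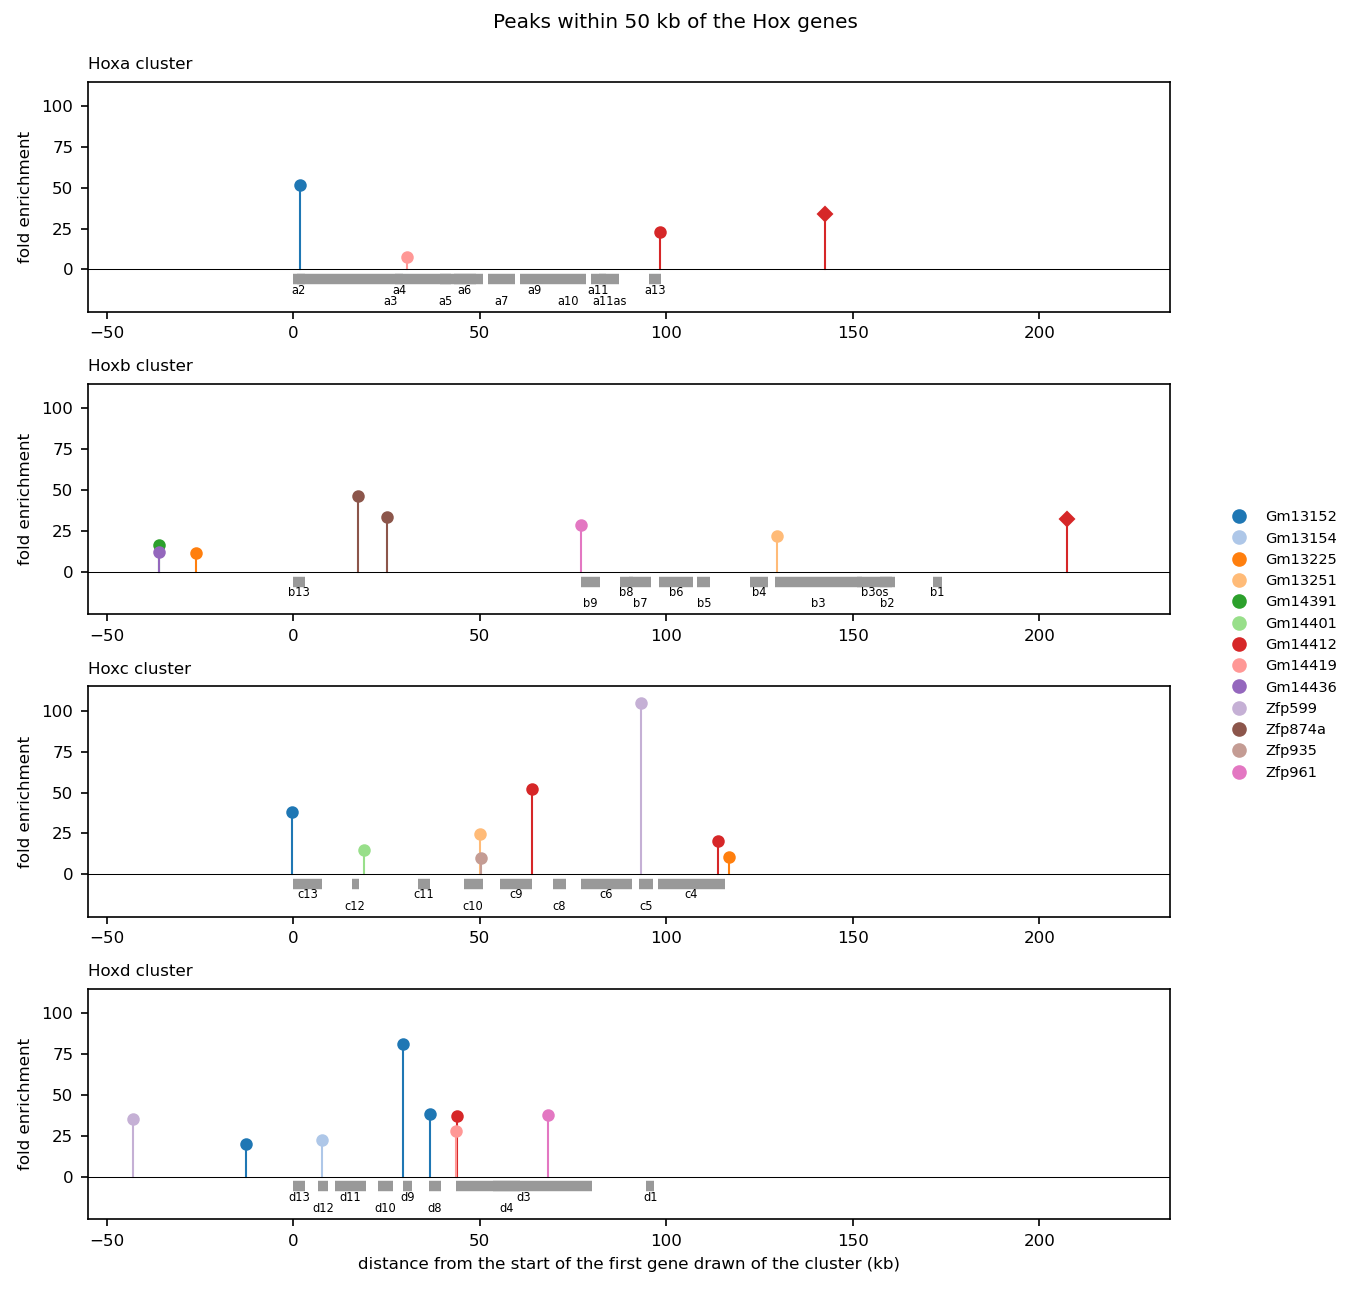
Peaks within 50 kb of the Hox genes, drawn at their distance in kb from the start of the first gene drawn of each cluster, with the fold enrichment of the peak on the vertical axis and 1 colour per KRAB-ZFP; grey bars are genes and diamonds are peaks in sequence of at least 10 copies. A gene and the peaks nearest to it are left out. The tallest peak is that of Zfp599 at Hoxc5 with 105-fold enrichment, followed by Gm13152 at Hoxd9 with 80.9-fold, and both diamonds belong to Gm14412 and lie outside the genes.

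The Hoxc cluster (chr15:102751534-102867274) carried the highest fold enrichment of all 163 peaks, where fold enrichment is the tag count over the local background as given by the peak caller. Zfp599 had 152 tags and 105-fold enrichment in a coding exon of Hoxc5, 428 bp downstream of its start, in sequence that occurs once in the genome. Gm14412 added a 52.3-fold peak 5472 bp upstream of a start of Hoxc8 and a 20.5-fold peak in a coding exon of Hoxc4. Gm13152 had a 38.0-fold peak 370 bp upstream of Hoxc13, in a coding exon of Gm17649 and 87 bp from the Gm17649 start. Gm13251 with 24.8-fold and Zfp935 with 10.2-fold enrichment had windows that overlapped by at least 25% in the UTR of Hoxc10. The remaining Hoxc peaks were those of Gm14401 near Hoxc12 with 14.6-fold and Gm13225 downstream of Hoxc4 with 10.7-fold enrichment.

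At the Hoxd cluster (chr2:74506367-74603200), which patterns limbs and the posterior axis, peaks gathered at transcript starts. Gm13152 had 209 tags and 80.9-fold enrichment 94 bp downstream of the Hoxd9 start, and 188 tags and 38.1-fold enrichment 42 bp upstream of a Hoxd8 start. A 20.0-fold Gm13152 peak 12712 bp upstream of Hoxd13 lay in a coding exon of Evx2, 3821 bp from the Evx2 start. Another 3 KRAB-ZFPs had peaks at starts of Hoxd3. Gm14412 with 36.9-fold and Gm14419 with 28-fold enrichment overlapped within 223 bp of 1 start, although Gm14412 was assayed in F9 and Gm14419 in ES cells, and Zfp961 with 37.6-fold enrichment lay 142 bp from another. Gm13154 had a 22.2-fold peak in a coding exon of Hoxd12, and Zfp599 a 35.1-fold peak 43005 bp upstream of Hoxd13 in sequence of 9 copies. Hoxd1 had 1 peak in its window, that of Zfp961.

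At the Hoxa cluster Gm13152 had a 51.8-fold peak in a coding exon of Hoxa2, Gm14412 a 23.1-fold peak 81 bp from the Hoxa13 start, and Gm14419 a 7.78-fold peak in a noncoding exon near Hoxa4. Gm14412 also had a 34.2-fold peak 44115 bp upstream of Hoxa13 in sequence of 28864 copies. At the Hoxb cluster (chr11:96055630-96229570), Zfp874a gave the largest peaks, with 46.3-fold and 33.8-fold enrichment 17291 bp and 25060 bp downstream of the start of Hoxb13, the outlying posterior member. Within the compact part of the cluster, Zfp961 had a 28.5-fold peak 24 bp from the Hoxb9 start and Gm13251 a 21.9-fold peak in an intron of Hoxb3.

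Both Zfp874a windows near Hoxb13 held the 8-mer ATTGGTTC or its reverse complement GAACCAAT. This 8-mer was the one most enriched in the peaks of Zfp874a elsewhere, where 35.9% of 145 peaks held it, against 0 of 290 windows placed 1 kb to either side, which allows a share of up to 1.03% for counting error alone. Among peaks of the other KRAB-ZFPs it was found in 0.327%. The windows near members were not used to choose it. The 2 windows are shown with the 8-mer in capitals, as they read on the plus strand. Each counts as single-copy, yet the longest run of identical bases between them, on either strand, was 33:

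Zfp874a at Hoxb13, chr11:96072821-96073020: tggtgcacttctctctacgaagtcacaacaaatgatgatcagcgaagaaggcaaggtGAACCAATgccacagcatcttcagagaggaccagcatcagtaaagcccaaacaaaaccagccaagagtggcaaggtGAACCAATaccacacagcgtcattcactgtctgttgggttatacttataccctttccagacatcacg
Zfp874a at Hoxb13, chr11:96080590-96080789: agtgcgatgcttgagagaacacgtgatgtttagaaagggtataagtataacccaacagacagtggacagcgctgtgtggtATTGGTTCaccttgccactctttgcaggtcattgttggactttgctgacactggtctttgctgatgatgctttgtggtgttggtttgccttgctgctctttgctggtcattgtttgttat

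Among the Pax genes, which encode paired-domain factors of the nervous system, muscle, kidney and B cells, 7 of 8 had a peak nearby and Pax8, a thyroid and kidney factor, had none. Pax3, needed for neural crest and muscle precursors, had 7 peaks of 7 KRAB-ZFPs with fold enrichments from 10.7 to 52.3, the highest being Gm13154 in an intron. The windows of Gm13235, Zfp709 and Zfp933 joined at 1 intronic locus, 11.8-fold to 13.4-fold enriched. Pax5, the B cell commitment factor, had 9 peaks of 6 KRAB-ZFPs, 7 of them in the gene body. The highest were Gm14419 in an intron with 76.5-fold and Zfp961 in the flank beyond the 3′ end with 60.9-fold enrichment. Gm14412 lay 108 bp from a Pax5 start with 29.1-fold enrichment, and windows of Gm13152 and Zfp961 overlapped in an intron. Pax9, required for teeth and the thymus, had 6 peaks of 6 KRAB-ZFPs, of which only that of Gm13152 with 24.5-fold enrichment was single-copy. The other 5, of Gm21082, Gm14401, Gm8898, Gm14443 and Gm14419, lay in an intron of the neighbouring gene Slc25a21 in sequence of 959 to 1967 copies. A partly like arrangement stood near Tbx5, where Gm8898 and Gm14419 peaks were 1454 bp apart against 1447 bp near Pax9, and the 2 Gm14419 windows shared a run of 92 identical bases. Gm14401 also had a multi-copy peak near both genes, and its 2 windows shared a run of 117 bases. Its distance from the Gm8898 peak was not alike at the 2 genes. In such sequence a read was placed at 1 of several equal positions, so which copy was bound cannot be told apart here.

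The T-box genes, regulators of heart and limb, all had peaks, with a median of 5 per gene. Tbx3 had 9 peaks of 7 KRAB-ZFPs, all in single-copy sequence. A group of 3, of Zfp46 with 20.4-fold, Gm14412 with 39.6-fold and Gm13152 with 39.4-fold enrichment, fell on 1 locus about 5629 bp downstream of a Tbx3 start, with window starts within 16 bp of each other in a CpG-rich stretch. The Gm13152 window (chr5:120136305-120136504, plus strand) is shown as 1 of the 3 sites near members with peaks of 3 KRAB-ZFPs, here from 2 FLAG and 1 HA ChIP, and the 8-mer most typical of Gm13152 is not in it:

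Gm13152 at Tbx3: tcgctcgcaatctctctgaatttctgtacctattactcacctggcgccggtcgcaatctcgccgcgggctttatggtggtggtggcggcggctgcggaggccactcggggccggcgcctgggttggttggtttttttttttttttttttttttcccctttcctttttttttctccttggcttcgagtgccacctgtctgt

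Tbx20 had 6 peaks of 6 KRAB-ZFPs, among them Gm13152 with 29.99-fold and Gm14419 with 16.7-fold enrichment within 166 bp of its start, and Zfp273 with 27.2-fold enrichment 2431 bp upstream. Tbx4, which acts in the hindlimb and lung, had 9 peaks of 6 KRAB-ZFPs from 8.82-fold to 40.9-fold. It lies beside Tbx2, and 5 of these peaks were shared, which is 83.3% of those of Tbx2 and 55.6% of those of Tbx4.

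Of the GATA factors, zinc finger proteins of blood and endoderm, all 5 had a peak, but the count ranged from 1 to 7. Gata4, the endoderm and heart factor, had 7 peaks of 6 KRAB-ZFPs, led by Zfp961 with 70.0-fold enrichment in an intron and Gm13152 with 48.2-fold in a coding exon. A 26.5-fold peak of Gm14412 there lay in sequence of 28864 copies. Gata3 had peaks of Gm13225, Gm14412 and Zfp709 from 11.9-fold to 24.8-fold, and Gata2 of Gm13225 with 16.7-fold and Gm14401 with 8.12-fold enrichment. No GATA gene had a peak within 1 kb of a start.

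All 4 Nkx genes and 5 of 6 Fox genes had a peak nearby, with medians of 4 and 3 peaks. Nkx2-5, the cardiac homeobox gene, had peaks of 4 KRAB-ZFPs, and the 92.4-fold peak of Gm13051, 20947 bp downstream of its start, was the second highest of the 163. Nkx2-1, of thyroid, lung and forebrain, had 6 peaks of 6 KRAB-ZFPs, and those of Gm13235, Gm13251 and Zfp759, from 16.99-fold to 35.6-fold, fell on 1 locus 11328 bp from the start. Nkx6-1, of beta cells and motor neurons, had 4 peaks of 3 KRAB-ZFPs, with Gm14406 highest at 36.7-fold in sequence of 8250 copies. Foxf1 and Foxc2 are neighbours and had the same 9 peaks of 5 KRAB-ZFPs, of which 5 were of Gm13152 from 26.3-fold to 38.6-fold, including a pair 19 bp and 505 bp upstream of a Foxf1 start. Foxc1 had peaks of 4 KRAB-ZFPs, led by Zfp961 with 59.6-fold enrichment 45293 bp upstream. Foxa2, the endoderm and node factor, had no peak.

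Among the LIM homeobox genes, which specify neuronal subtypes, the median was 2 peaks per gene and 1 of 8 had peaks of at least 3 KRAB-ZFPs. Lhx4 had peaks of Gm13145, Zfp709 and Zfp953, the latter pair overlapping 4268 bp upstream of its start. At Lhx2, Gm13152 with 25.5-fold and Zfp46 with 20.4-fold enrichment lay 314 bp and 105 bp upstream of a start. Lhx3 had a 46.2-fold peak of Gm14412 and an 11.5-fold peak of Gm13225. Lhx1, the kidney and head organizer factor, had no peak, and Lhx1, Pax8 and Foxa2 were the 3 members without a call within 50 kb. At 100 kb all 78 protein-coding members had one, as did 97.8% of protein-coding genes.

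**Figure D3:**
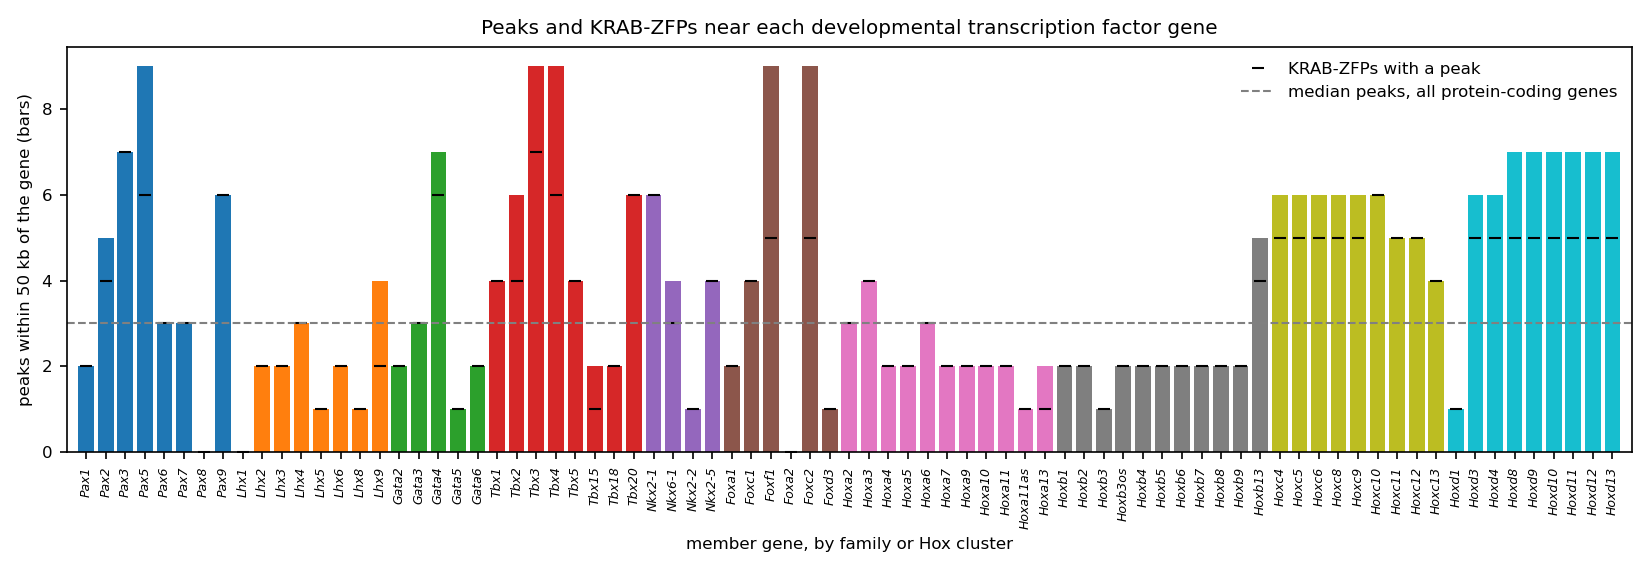
Number of peaks within 50 kb of each of 79 genes (bars, coloured by family or Hox cluster) and number of KRAB-ZFPs they belong to (black dashes); the dashed line is the median of 3 peaks over all protein-coding genes. Pax5, Tbx3, Tbx4, Foxf1 and Foxc2 reach 9 peaks, and the Hoxc genes reach 4 to 6 and the Hoxd genes other than Hoxd1 reach 6 or 7, counting shared peaks once for each gene.

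A few KRAB-ZFPs supplied most sites, and these also had large peak sets. The 11 with at least 5 peaks near members gave 118 of the 163, or 72.4%, and 59.4% of all peaks in the series. Gm13152 had 29 peaks near members, which is 0.559% of its own peaks, Gm14412 had 17 or 0.610%, Gm13225 and Gm13251 had 12 each or 0.336% and 0.364%, and Gm14419 and Zfp961 had 9 each or 0.230% and 0.618%. Gm14401 followed with 8, Gm13235 and Zfp599 with 6 each, and Gm13154 and Gm14406 with 5 each, which for Gm14406 is 0.0880% of the largest peak set, 5685 peaks. The share over all 53011 peaks was 0.307%. Among KRAB-ZFPs with at least 5 such peaks, the largest shares were those of Zfp599 with 0.861% (Wilson 95% interval 0.395 to 1.87), Zfp961 with 0.618% (0.325 to 1.17), Gm14412 with 0.610% (0.381 to 0.975), Gm13152 with 0.559% (0.389 to 0.801) and Gm14401 with 0.519% (0.263 to 1.02). These intervals cover counting error alone and overlap one another. The pooled share lies below the intervals of Zfp599, Zfp961, Gm14412 and Gm13152, which were picked here for their large shares. Of the 16 KRAB-ZFPs with at least 1000 peaks, 9 were denser near members than near other protein-coding genes and 7 were not, and the ratio ran from 2.53 for Gm14412 to 0.206 for Zfp457.

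**Figure D4:**
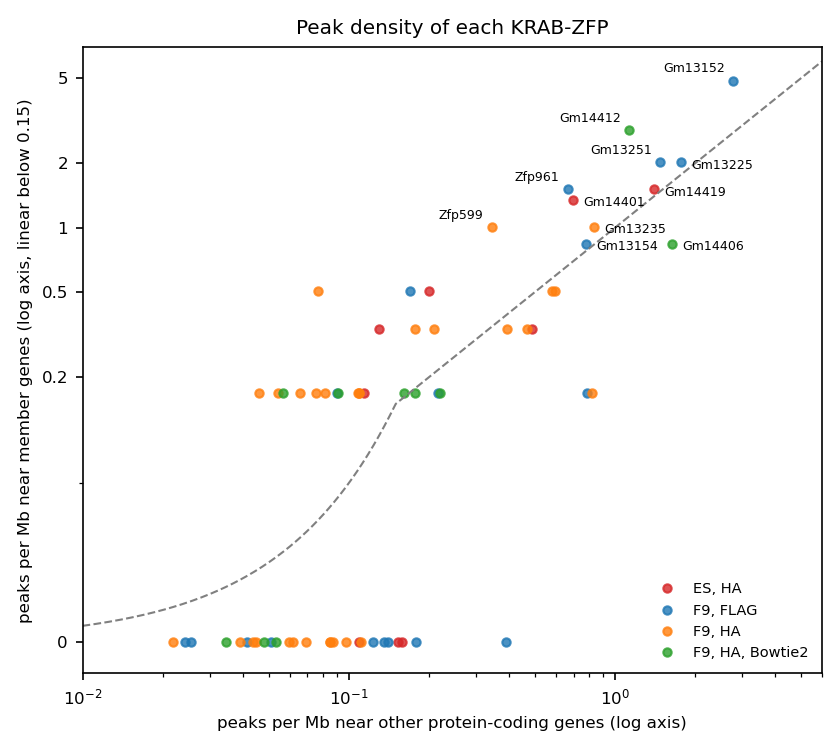
Peaks per Mb near members against peaks per Mb near other protein-coding genes for each of the 67 KRAB-ZFPs, coloured by cell line, tag and aligner, on log axes (vertical axis linear below 0.15); the dashed line marks equal densities and the 11 KRAB-ZFPs with at least 5 peaks near members are named. Gm14412, Zfp961 and Zfp599 lie above the line with ratios of 2.53, 2.27 and 2.91, and the points along the bottom are the 27 KRAB-ZFPs without a peak near members.

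For Gm13152 the share of members with a peak lay close to that of all genes, while its density in the members' windows was 1.75 times that near other genes. A Gm13152 peak lay within 50 kb of 33 protein-coding members, or 42.3%, against 40.6% of all protein-coding genes, and within 1 kb of a start of 9, or 11.5%, against 11.9%. Of its 29 peaks near members 10, or 34.5% with an exact 95% interval of 17.9 to 54.3, were within 1 kb of a protein-coding start, against 54.2% of its 4584 peaks near other genes, just inside that interval. The median GC content of its peaks was 68.5% near members and 66.0% near other genes. Without Gm13152, 13 members, or 16.7%, kept a peak within 1 kb of a start, against 10.9% of protein-coding genes. The start peaks at Hoxd8, Hoxd9, Hoxc13, Pax1, Foxf1, Tbx2, Tbx20, Lhx2 and Nkx2-5 were those of Gm13152, alone or with another KRAB-ZFP. At Hoxa13, Hoxb3, Hoxb9, Hoxc4, Hoxc5, Hoxd3, Hoxd12, Pax2, Pax5, Pax6 and Tbx3 they came from other KRAB-ZFPs alone.

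Gm14412 stood within 50 kb of 34 protein-coding members, or 43.6%, against 16.6% of protein-coding genes, and 6 of its 17 peaks near members lay at the Hox clusters, where 1 peak reaches many genes. Of those 17 peaks 11 were single-copy, whereas 65.3% of all its peaks were in sequence of at least 10 copies. Zfp961 reached 21 members, or 26.9%, against 10.4%, and all 9 of its peaks near members were single-copy. Zfp599 reached 12, or 15.4%, against 5.76%. Zfp961 and Zfp599 each had 2 peaks at Hox clusters, which were counted for several genes and supplied most of the members each reached. Gm13225, Gm13235 and Gm14401 gave 19.2% against 25.5%, 7.69% against 12.6% and 16.7% against 11.5%. These shares are not matched for gene length, and the densities of Gm13225 and Gm13235 near members were 1.14 and 1.21 times those near other genes. No test over the members was made.

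The peaks of Zfp961 most often carried the 8-mer TGGCGCCC or its reverse complement GGGCGCCA, letters that also open the primer binding site of retroviruses primed by lysine tRNA. It was found in 47.0% of 1448 Zfp961 peaks away from members, 0.242% of windows 1 kb to either side and 0.322% of peaks of other KRAB-ZFPs. Near members 4 of 9 Zfp961 peaks held it and 0 of 18 flanking windows did. These 4 are shown with it in capitals, on the plus strand, since they link single-copy sites at a GATA, a Pax, a T-box and a Hox gene to the letters typical of this protein. At Hoxd3 only 30 bases are given, and there the 8-mer begins near the window centre:

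Zfp961 at Gata4, chr14:63829643-63829842: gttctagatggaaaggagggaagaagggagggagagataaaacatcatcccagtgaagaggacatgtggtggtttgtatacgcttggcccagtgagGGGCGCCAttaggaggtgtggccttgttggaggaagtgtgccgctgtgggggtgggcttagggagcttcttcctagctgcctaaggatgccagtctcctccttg
Zfp961 at Pax5, chr4:44509471-44509670: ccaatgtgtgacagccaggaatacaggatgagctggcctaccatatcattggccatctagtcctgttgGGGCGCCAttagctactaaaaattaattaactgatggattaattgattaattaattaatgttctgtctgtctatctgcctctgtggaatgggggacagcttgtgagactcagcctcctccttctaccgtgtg
Zfp961 at Tbx4, chr11:85702042-85702241: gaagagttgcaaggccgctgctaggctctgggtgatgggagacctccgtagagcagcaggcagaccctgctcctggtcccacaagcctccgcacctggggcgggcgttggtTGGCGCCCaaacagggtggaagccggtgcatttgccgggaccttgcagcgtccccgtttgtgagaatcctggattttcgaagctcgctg
Zfp961 at Hoxd3, chr2:74574698-74574727: ctgccccccacTGGCGCCCactctgagacc

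The window of Gm13051 near Nkx2-5 held its 8-mer GATACCAA, or the reverse complement TTGGTATC, at 2 places, and 84.5% of its 549 peaks elsewhere held it. It is the second highest peak near members and lies in sequence of 6 copies, on the plus strand:

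Gm13051 at Nkx2-5, chr17:26957463-26957662: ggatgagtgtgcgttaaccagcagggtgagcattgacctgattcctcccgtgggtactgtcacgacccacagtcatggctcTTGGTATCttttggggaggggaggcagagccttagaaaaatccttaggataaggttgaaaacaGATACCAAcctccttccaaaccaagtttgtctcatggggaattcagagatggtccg

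Over the 11 KRAB-ZFPs with at least 5 peaks near members, 29 of 118 member peaks, or 24.6%, held the 8-mer of their KRAB-ZFP, against 49.0% of their 31366 peaks elsewhere and 1 of 236 flanking windows. The 2 pools of peaks mix the KRAB-ZFPs in unlike proportions, so 24.6% and 49.0% are not directly comparable. Gm14406, with its 8-mer in 91.9% of its peaks elsewhere, gave 5680 of the 31366 but 5 of the 118. Gm13152, with 20.9%, gave 5160 and 29. An 8-mer drawn from all peaks of a protein that binds repeats mirrors the repeat, and for some KRAB-ZFPs it was a run of A, so its absence from a window says only that these letters are not there.

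**Figure D5:**
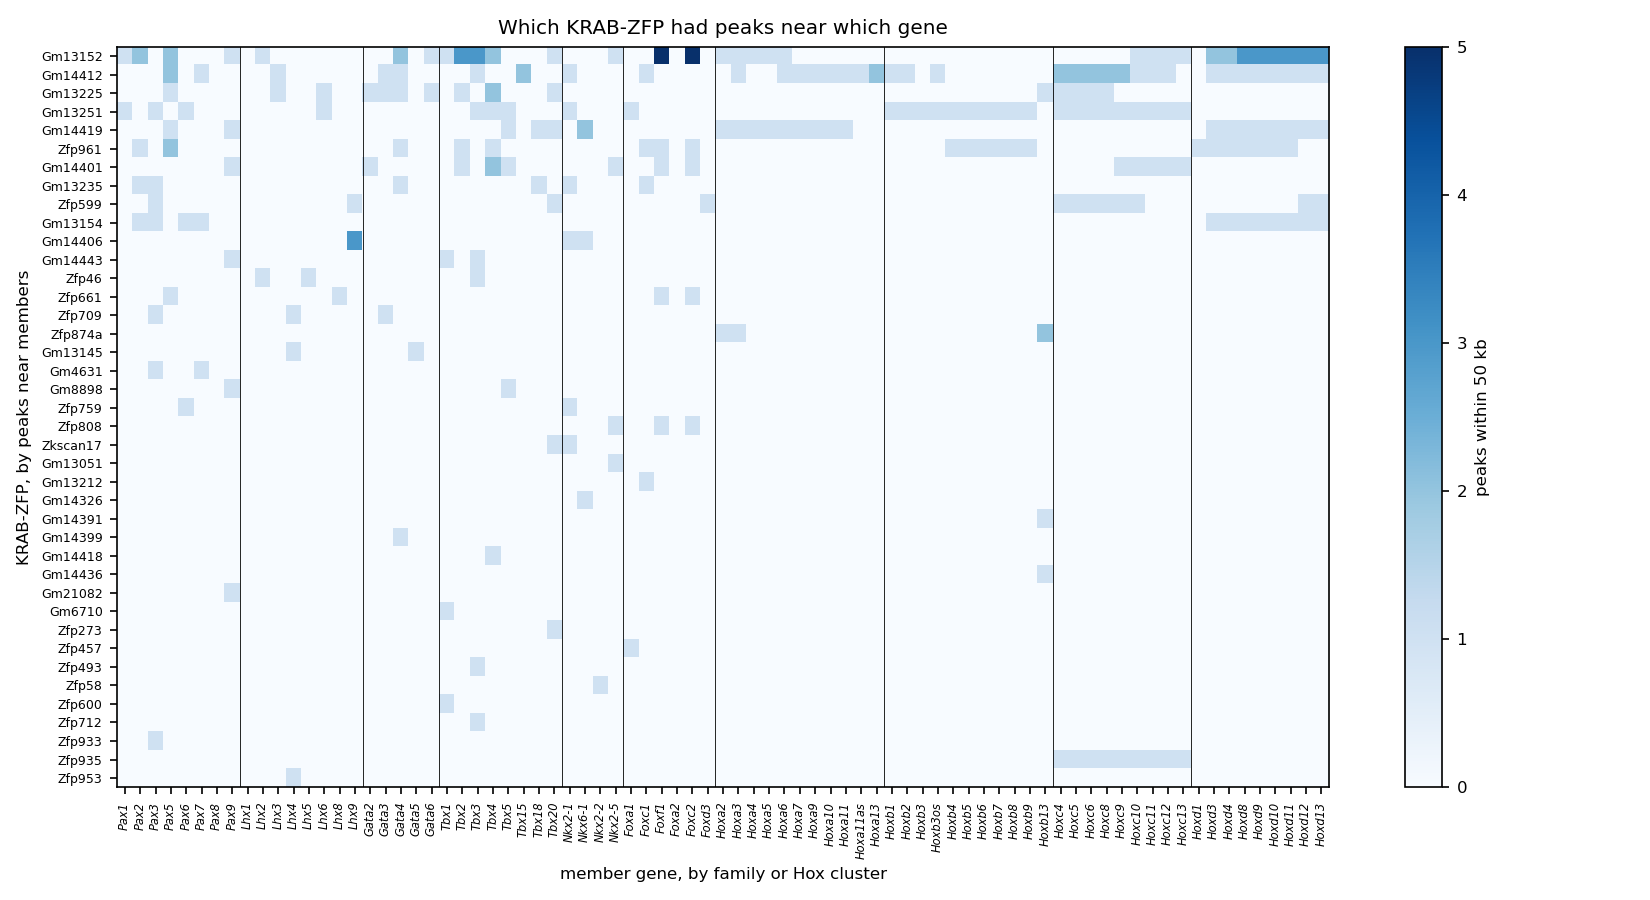
Number of peaks (colour) of each of the 40 KRAB-ZFPs with a peak near members (rows, by number of peaks) within 50 kb of each of 79 genes (columns, by family or Hox cluster). Long pale runs in the Hox columns are single peaks counted for many neighbouring genes, and the darkest cells are the 5 peaks of Gm13152 at Foxf1 and Foxc2.

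By place, 45.4% of the 163 peaks were intergenic and 36.8% intronic, against 43.6% and 46.9% near other protein-coding genes. Coding exons held 14 peaks, or 8.59%, against 3.62%, and UTRs 12, or 7.36%, against 4.87%. Exons of any gene count here, such as those of Evx2 and Gm17649. Of the 29 Gm13152 peaks near members 24.1% lay in coding exons. Without Gm13152 the shares were 5.22% against 2.48% in coding exons and 5.97% against 2.66% in UTRs. The nearest protein-coding start belonged to a member for 127 peaks, and 53 peaks lay inside a member's gene body. The median fold enrichment was 23.1 against 22.8 near other genes, with a range from 5.3 to 105, and the median was 48 tags against 45. Windows of at least 2 KRAB-ZFPs overlapped by at least 25% at 10 of the 150 loci near members, and 1 of these 10, near Pax9, was in multi-copy sequence. The same count near other protein-coding genes is not given here, so whether such overlap is usual cannot be told.

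The cell line and tag could be compared over KRAB-ZFPs only, since no KRAB-ZFP was assayed in more than 1 setting. Peaks near members were found for 9 of 18 FLAG-tagged and 18 of 30 HA-tagged KRAB-ZFPs in F9 cells, 7 of 10 in the Bowtie2 set and 6 of 9 in ES cells, and made up 0.352%, 0.300%, 0.258% and 0.274% of their peaks. A two-sided Fisher's exact test per gene over KRAB-ZFPs, with Benjamini-Hochberg adjustment over all protein-coding genes with a peak, called 0 of 18171 genes between FLAG and HA in F9 cells, or 0%, and 0 of 20248 between F9 and ES cells, or 0%. At an unadjusted p under 0.05 there were 1371 and 949 genes. Among members 8 of 68 and 2 of 75 passed that unadjusted limit. The 8 were Tbx2, its neighbour Tbx4 and genes of the Hoxd cluster, which share peaks and are not independent. Tbx4 had peaks of 4 of 18 FLAG-tagged and 0 of 30 HA-tagged KRAB-ZFPs (exact p = 0.0157, adjusted p = 0.539). Pax9 had peaks of 2 of 58 KRAB-ZFPs in F9 and 4 of 9 in ES cells (exact p = 0.00216, adjusted p = 0.401). The 4 lay in the multi-copy stretch described above, which also held the peak of Gm21082 from F9 cells. The cell line, the protein and the calling settings cannot be told apart in these tests.

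Further lists of genes were read against the same 90.9%. Of 72 other developmental transcription factor genes such as Sox, Dlx, Irx and Zic members, 68 had a peak within 50 kb, or 94.4%, with a median of 3 peaks. Gli2, a mediator of Hedgehog signalling, had 12 peaks of 9 KRAB-ZFPs, Runx3 11 of 9 and Runx2, the bone factor, 9 of 7, while Irx1, Msx2, Otx1 and Sox3 had none. All 8 genes of the Pbx, Meis and Pknox cofactors with which Hox proteins bind DNA had a peak, with a median of 5 and a median gene length of 170.0 kb against 7.58 kb for the members, among them Pbx3 with 8 and Pknox2 with 7 peaks. All 17 Polycomb group and H3K27 demethylase genes had one as well, with a median of 4 peaks. Their median gene length was 26.3 kb, against 15.5 kb for all protein-coding genes. Among them Cbx7 and Ezh1 had 8 peaks each and Jarid2 had 6.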

How the data were processed

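Epitope-tagged KRAB-ZFPs were immunoprecipitated from F9 EC or B6 ES cells, and the authors mapped the reads to mm9 with Bowtie or Bowtie2, placing a read with several equal positions at 1 of them, and called peaks per sample with MACS 1.4.2 under p thresholds of 1e-10 or 1e-05 and, in F9 cells, enrichment thresholds of 20 or 10. In multi-copy sequence a peak may therefore mark another copy, and peak numbers of KRAB-ZFPs called under different thresholds are not directly comparable. The authors deposited each peak as a 200 bp window with its tags as a raw count, a score (10 times the negative log10 of the p-value), a fold enrichment (a ratio) and a false discovery rate in percent. The table held 53255 peaks under 68 names, and 1 name with 244 peaks matched no label and was not used, as was 1 label without a name. Control libraries were not analysed here.

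Peaks were assigned to gencode vM1 genes by midpoint, with overlapping records of 1 symbol joined, in Python 3.11.15 with scipy 1.17.1. The reference NCBIM37 is the build named mm9, and positions are counted from 1, taking the table's starts as counted from 0. Copy number of a peak is the median over the 24-mers of its window, and that of a sampled position is the count of its single 24-mer. Protein-coding genes were weighted in 10 length classes. The members and lists were chosen with earlier results of these data known, and the per-gene test was checked on simulated data. Named genes were, by rule, up to 3 per family with the most KRAB-ZFPs, all with a peak at a start or without any peak, the 10 highest peaks near members, the highest of each Hox cluster and the KRAB-ZFPs with the most peaks or largest shares, except that some genes and sequences that the rule would name are not reported here. Each KRAB-ZFP's 8-mer was the one with the largest excess in its peaks away from members over windows 1 kb to either side. Alternatives were distances of 10 kb and 100 kb, gene bodies alone, stricter thresholds, single-copy peaks and leaving out Gm13152.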

Additional observations from a re-analysis of the deposited data

How the results depend on the processing

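No paired analysis was possible because each KRAB-ZFP had 1 sample, and no replicate could be left out. Of 41 alternatives for the main results 32 left the value within its limits and 9 moved it. At 10 kb, 25 Hox genes, 23 KRAB-ZFPs and a density ratio of 1.58 were found, at a background of 61.3% of genes, and in gene bodies alone 35 genes, 19 KRAB-ZFPs and a ratio of 1.64. With p under 1e-10 and enrichment over 20 there were 22 KRAB-ZFPs. Single-copy peaks gave a ratio of 1.49, and without Gm13152 13 genes had a peak at a start. The ratio stayed above 1 in every alternative run. Library depth is unknown, so how many sites were missed cannot be stated.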

Other observations

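Lhx9, a gonad and limb LIM homeobox gene outside the rule for named genes, was chosen here after its values were seen. It had 4 peaks, of which 3 belonged to Gm14406 with 23.5-fold to 36.9-fold enrichment in sequence of 5048 to 7976 copies, and Gm14406 had 5 peaks near members, none of them single-copy.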
